A study of Mus musculus with 11 samples.

Results

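Galnt18, Npas3, Aff3, Cttnbp2, Amph, Neto1, Ank3 and Intu were examined for open chromatin in the lung epithelium of mice at E17.5 with and without deletion of Prdm16 and Prdm3. They are 8 of 21887 protein-coding genes of the annotation and were chosen because of strong or frequent gains in the knockout peak lists. Their regions are those whose nearest protein-coding gene body, at most 100 kb away, is that of one of these genes, which gave 167 of 101557 regions. Of these, 122 had a peak in at least 3 of 11 libraries and were among the 83262 regions tested across the genome. Of the other 45, 28 had peaks in knockout libraries only, 11 in control libraries only and 6 in both.

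The series held 6 control and 5 knockout ATAC-seq libraries, 1 peak list each. ATAC-seq marks accessible DNA with a transposase, here in nuclei of 50000 cells captured with beads against EpCAM, an epithelial surface protein. Knockout mice carried floxed alleles of Prdm16 and Prdm3 (gene symbol Mecom) and the ShhCre allele, in which Cre is made where sonic hedgehog is expressed, including the lung epithelium. In the breeding described, Prdm3fl/flPrdm16fl/wtShhCre+ males were crossed with Prdm3fl/flPrdm16fl/fl females, and the genotype of the controls is given only as control. Whether each library came from a separate fetus is not stated, so the spread between libraries may be technical in part. In such bulk material, more cells with an open site and a more open site per cell cannot be told apart.

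The products of the 8 genes work in different places in the cell. Ank3 encodes ankyrin-G, which ties membrane proteins to the spectrin skeleton and is found at the lateral membrane of epithelial cells. Cttnbp2 encodes a cortactin-binding protein known from dendritic spines, Amph encodes amphiphysin, a BAR-domain protein of clathrin-mediated endocytosis, and Neto1 an auxiliary subunit of ionotropic glutamate receptors. Intu (inturned) encodes a planar polarity effector needed for primary cilia. Npas3 is a bHLH-PAS transcription factor and Aff3 a nuclear protein of the AFF family, whose relatives scaffold transcription elongation complexes. Galnt18 belongs to the family of Golgi enzymes that begin mucin-type O-glycosylation. Several of the genes are best known from neurons. A site of open chromatin inside or near a gene is often a regulatory element, but nearness alone does not say which gene it acts on.

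Genes with gains differed in whether their start was open. RefSeq promoter sequences (GRCm38.p6, 250 bases before to 50 after a start, 5′ to 3′ on the gene's strand) were found for 5 of the 8 genes, namely Npas3, Aff3, Cttnbp2, Amph and Intu. Those of Npas3 (chr12:53248182-53248481, plus strand), Amph (chr13:18948101-18948400, plus strand) and Intu (chr3:40540517-40540816, plus strand) are shown because the first was open in no library, the second was more open in the knockout and the third was open in all libraries. Capitals mark CpG dinucleotides.
Npas3: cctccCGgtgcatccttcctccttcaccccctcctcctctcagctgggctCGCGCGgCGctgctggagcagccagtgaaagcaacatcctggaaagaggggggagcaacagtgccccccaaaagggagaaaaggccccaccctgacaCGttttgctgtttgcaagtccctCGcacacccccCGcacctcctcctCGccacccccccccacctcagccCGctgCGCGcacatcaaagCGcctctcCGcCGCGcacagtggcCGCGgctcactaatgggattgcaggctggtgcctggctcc
Amph: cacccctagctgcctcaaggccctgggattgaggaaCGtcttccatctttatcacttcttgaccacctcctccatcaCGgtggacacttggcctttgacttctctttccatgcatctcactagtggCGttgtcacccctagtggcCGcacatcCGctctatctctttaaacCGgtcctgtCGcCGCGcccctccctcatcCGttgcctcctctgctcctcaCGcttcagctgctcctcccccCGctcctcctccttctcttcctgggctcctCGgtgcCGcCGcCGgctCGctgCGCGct
Intu: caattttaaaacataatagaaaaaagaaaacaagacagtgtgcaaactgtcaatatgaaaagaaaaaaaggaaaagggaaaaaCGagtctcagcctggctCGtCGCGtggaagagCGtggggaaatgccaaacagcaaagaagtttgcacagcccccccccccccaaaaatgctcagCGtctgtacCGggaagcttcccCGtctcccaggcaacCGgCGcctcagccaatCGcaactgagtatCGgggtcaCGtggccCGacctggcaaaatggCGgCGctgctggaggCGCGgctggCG

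The Npas3 promoter holds 18 CpG dinucleotides and that of Amph and of Intu 19 each, against a median of 13 over 21238 promoters of protein-coding genes. Those of Cttnbp2 and Aff3 hold 30 and 54. The GC content was 66.3% at Npas3, 61.0% at Amph and 53.7% at Intu, and the median of all promoters was 56.3%. 10 short motifs were searched on both strands, and none matched in any of the 5 promoters. Gained regions away from these promoters were not searched, so the motifs say nothing about them. The AP-1 letters TGANTCA are held by 6.99% of all promoters of this length. The forkhead letters TGTTTAC are held by 3.00%. For the NKX2 factors CACTTGA is held by 2.95% and its looser form, which includes it, CACTTNA, by 10.8%. For EVI1, the Mecom product, GACAAGATA is held by 0.0989% and the second form, GAAGATGAG, by 0.396%. The TEAD letters GGAATG are held by 13.6% and the SOX letters ACAATGG by 2.92%. The C/EBP letters TTGCNNAA are held by 10.2% and the GATA letters AGATAA by 9.65%.

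At the 1 start listed for Npas3, no library of either genotype had a peak in its full deposited list, and the nearest peak of any library was 3853 bp away. Starts listed for other genes lie inside Npas3, and a region 128 bp from one of them (53253067 to 53253466) had a peak in 3 controls and 5 knockouts. By contrast, all 11 libraries were open at the Intu start (40540595 to 40540994 on chromosome 3). Openness is given as a rank score, with 1 standing for the top peak in a list, evenly smaller values for each weaker peak, and 0 where there was none. At the Intu start it averaged 0.804 ± 0.041 in the 6 controls and 0.846 ± 0.0316 in the 5 knockouts (± SD, here and below). The Cttnbp2 start at 18514602 to 18515001 was also open in both genotypes, with 0.909 ± 0.0179 and 0.884 ± 0.0224. The Aff3 start at 38626899 to 38627298 had 0.537 ± 0.0176 and 0.613 ± 0.195. In knockout replicates 3 and 4 it took its score, 0.828 and 0.817, from the same peak as a neighbouring region. That neighbour (38627307 to 38627706) also overlaps the Aff3 promoter and scored 0.779 ± 0.0343 and 0.794 ± 0.0687. At the Amph start (18948135 to 18948534) the scores were 0.274, 0.243, 0, 0.439, 0.490 and 0.592 in control replicates 1 to 6 and 0.619, 0.673, 0.683, 0.502 and 0.491 in knockout replicates 1 to 5. The knockout level was thus the higher one, at 0.594 ± 0.092 against 0.340 ± 0.212, but the groups overlapped. No listed start was matched for Galnt18 or Neto1, and regions at 1 end of each were open in both genotypes. That of Galnt18 (111779866 to 111780265) scored 0.942 ± 0.0191 and 0.913 ± 0.0189, and that of Neto1 (86395367 to 86395766) 0.405 ± 0.244 and 0.563 ± 0.0507. Ank3 had no tested region within 1 kb of a gene end.

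The 8 genes were chosen on the contrast of knockout against control, so its values are a description of the members and no test of them is given. By limma across all 83262 regions, 55 of the 122 member regions were called higher in the knockout (adjusted p below 0.05), where 17.0% of all regions were. Lower calls were made for 16 of the 122 regions, where 20.8% of all regions were. The other 51 were not called, and 37.8% of all regions were called in either direction. Fisher's exact test on the presence of a peak called 30 of 45 testable member regions higher and 3 lower, where 23.3% and 23.9% of all testable regions were. The median difference in score, knockout minus control, was 0.0953 over the member regions and -0.0208 over all tested regions. A peak in all 5 knockouts and in no control was found at 18 member regions, against 3.89% of all regions, and the reverse at 2, against 2.94%. Every knockout score lay above every control score at 35 of the 122, against 10.9%. Differences of at least 0.5 were seen at 15 member regions (3.84% of all regions), and the values ran without a break across that limit, from 0.518 and 0.516 just above it to 0.491 and 0.480 just below. Each list was cut to its 72935 strongest peaks, the length of the shortest list, and absence of a peak refers to these unless the full lists are named. Of the 55 higher regions, 30 had no control peak by that measure and 26 had none in any control list as deposited. The same counts were not made over all higher regions of the genome, so they only describe the members.

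The gains took different forms. Cttnbp2, Amph, Neto1, Ank3 and Intu each had 1 region that went from little or nothing in controls to a place among the strongest peaks of the knockout lists. All 5 of these differences were above 0.9, a size reached by 66 regions (0.0793%) of the genome. In the order of all regions by gain they stood at places 1, 4, 6, 14 and 9. Galnt18, Npas3 and Aff3 had no such region, and instead had 11 or 12 higher regions each, with smaller differences.

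**Figure D1:**
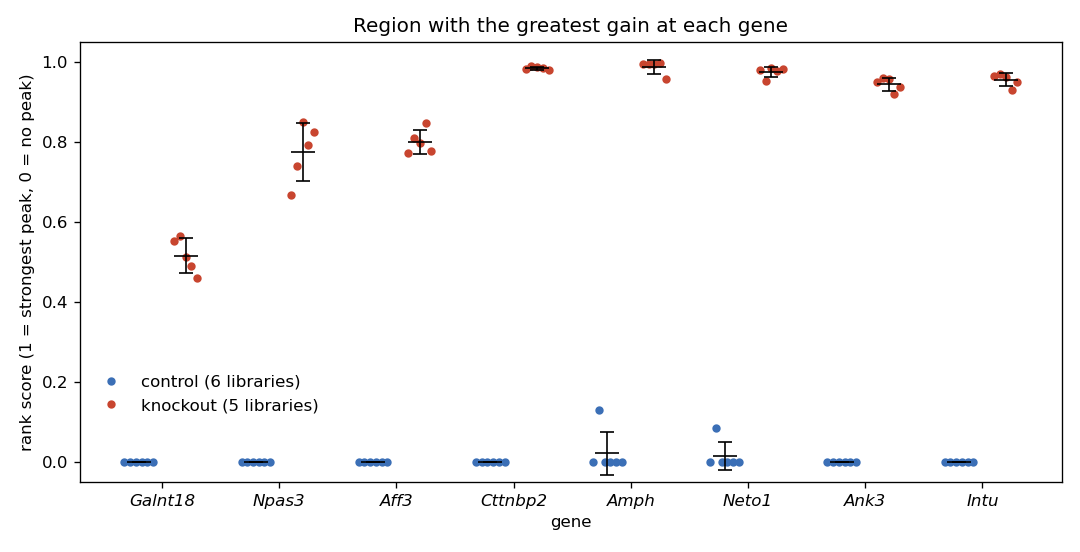
Rank score (vertical axis, from 0 without a peak to 1 for the top peak) of the region with the greatest gain at each of the 8 genes. Points are libraries, 6 control (blue) and 5 knockout (red), and bars the mean and SD; the knockout libraries sit above 0.9 at Cttnbp2, Amph, Neto1, Ank3 and Intu and between 0.459 and 0.850 at Galnt18, Npas3 and Aff3, while the controls are at 0 except for 1 library each at Amph and Neto1.

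At Cttnbp2 (gene 30785, chromosome 6, 18366471 to 18515217) the greatest gain lay outside the gene body, 16762 bp from its lower-coordinate end, at 18349509 to 18349908. No control had a peak there, also in the full lists, and knockout replicates 1 to 5 scored 0.983, 0.990, 0.987, 0.985 and 0.981. These were the peaks ranked 729 to 1372 in their libraries, and their summits lay within 15 bp of each other. The other neighbour of this site is Cftr, the gene of an epithelial chloride channel, whose body is 26939 bp away, so the assignment to Cttnbp2 rests on distance alone. A region inside the gene (18498900 to 18499299) scored 0, 0, 0.195, 0.237, 0 and 0 in controls and 0.609, 0.508, 0.597, 0.592 and 0.386 in knockouts. In the full lists 5 controls had a peak there, so some of these zeros come from the cut of the lists. Another region, 13753 bp beyond the other end (18528770 to 18529169), went from 0.307 ± 0.198 to 0.761 ± 0.0203. In both, all knockouts were above all controls. In all, 3 of 10 tested Cttnbp2 regions were higher and 2 lower, against 3 and 4 of 14 with the lists as deposited and 3 and 0 of 8 with lists cut to 36467 peaks.

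One of the 2 lower Cttnbp2 regions rests on how peaks were parted. The region at 18514103 to 18514502, beside the start, scored 0.909 ± 0.0179 in controls and 0.0463, 0.00591, 0.0574, 0.868 and 0.159 in knockout replicates 1 to 5. In the controls and in knockout replicate 4 it took its score from the same broad peak as the start itself, and where overlapping peaks were merged its difference of -0.682 became -0.0256. The other lower region, at 18432354 to 18432753 inside the gene, had a peak in all 6 controls, at 0.356 ± 0.107, and in no knockout.

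Amph (gene 218038, chromosome 13, 18948142 to 19154032) had 6 of 7 tested regions higher and none lower. With the lists as deposited, with a -log10 q of at least 5 and in the order of fold enrichment, 4 of 8 were higher. The strongest, inside the gene at 19121736 to 19122135, had a peak in 1 control, with 0.131 in replicate 2. Knockout replicates 1 to 5 scored 0.995, 0.997, 0.996, 0.999 and 0.958 there, and their peaks ranked between 71 and 3092. The deposited fold enrichment of these peaks was 23.2 to 31.4, where the median peak of the knockout lists had 8.82 to 10.1, and their summits fell within 8 bp. A second region inside the gene, at 19104880 to 19105279, had no control peak and scored 0.503, 0.619, 0.677, 0.696 and 0.7. The other 4 higher regions were already open in controls. One of them, 2485 bp outside the gene on the side of the start (18945457 to 18945856), went from 0.604 ± 0.0967 to 0.863 ± 0.0251. A further pair lay 23804 and 41653 bp beyond the far end and went from 0.467 ± 0.0995 to 0.621 ± 0.0914 and from 0.307 ± 0.0788 to 0.597 ± 0.103, the latter a difference of 0.290 that was 0.173 in the lists as deposited. The fourth was the start region described above.

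Neto1 (gene 246317, chromosome 18, 86394815 to 86506721) had the lowest control level of the 8 genes, and 4 of its 6 tested regions were higher. The region at 86404020 to 86404419 scored 0.0856 in control replicate 2 and 0 in the other controls. In the full lists 2 controls had a peak there. In knockout replicates 1 to 5 the region scored 0.981, 0.954, 0.985, 0.978 and 0.984, and the summits spanned 30 bp. No control had a peak at 86462785 to 86463184, where knockouts scored 0.457, 0.573, 0.750, 0.499 and 0.712. A region 9734 bp beyond the gene (86516255 to 86516654) had scores of 0, 0, 0, 0.0479, 0 and 0.186 in controls and of 0.610, 0.576, 0.638, 0.561 and 0.480 in knockouts. The remaining higher region (86442128 to 86442527) had no control peak and scored 0.347 ± 0.220 in knockouts, with none in knockout replicate 2. No Neto1 region was called lower, and the region with the greatest fall (86490655 to 86491054) differed by -0.0803.

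At Intu (gene 380614, chromosome 3, 40531291 to 40704776) a single region was higher, or 2 with peaks ordered by fold enrichment and with centred scores. It lay inside the gene at 40682389 to 40682788, 26282 bp from the neighbouring gene Slc25a31. All 6 controls were without a peak, and the knockouts scored 0.967, 0.972, 0.964, 0.930 and 0.951. A neighbouring region (40674878 to 40675277) was open in all libraries, at 0.730 ± 0.0542 and 0.782 ± 0.0527. A region near the lower-coordinate end (40532901 to 40533300) was lower, at 0.800 ± 0.0515 and 0.626 ± 0.0876, and the ranges overlapped, since the lowest control had 0.719 and the highest knockout 0.728. With peaks ordered by fold enrichment no Intu region was lower, and the difference here was -0.0532 in place of -0.174.

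Ank3 (gene 11735, chromosome 10, 69533486 to 70027436) had the most tested regions, 27, with 7 higher and 8 lower. The balance turned to 8 higher and 7 lower when each library's scores were centred on their mean. With peaks ordered by fold enrichment it was 5 higher and 4 lower. It stayed on the lower side with overlapping peaks merged, at 7 higher and 8 lower. With the lists as deposited, and with a -log10 q of at least 5, it was 5 higher and 10 lower. The greatest gain, at 69988703 to 69989102, had no peak in controls and scores of 0.950, 0.960, 0.957, 0.921 and 0.939 in knockouts. The 2 next gains were partly open in controls. The region at 69924428 to 69924827 scored 0.439, 0.345, 0, 0.414, 0 and 0.403 in controls and 0.793, 0.726, 0.785, 0.776 and 0.652 in knockouts, and the region at 69888381 to 69888780 went from 0.141 ± 0.122 to 0.609 ± 0.0278. Losses stood between and beside them. A region at 69928321 to 69928720, less than 4 kb from the second gain, had a peak in all controls (0.356 ± 0.142) and in no knockout. The greatest fall was at 69655253 to 69655652, where controls scored 0.629, 0.664, 0.630, 0.681, 0.480 and 0.458 and knockouts 0.251, 0, 0.276, 0.225 and 0.

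**Figure D2:**
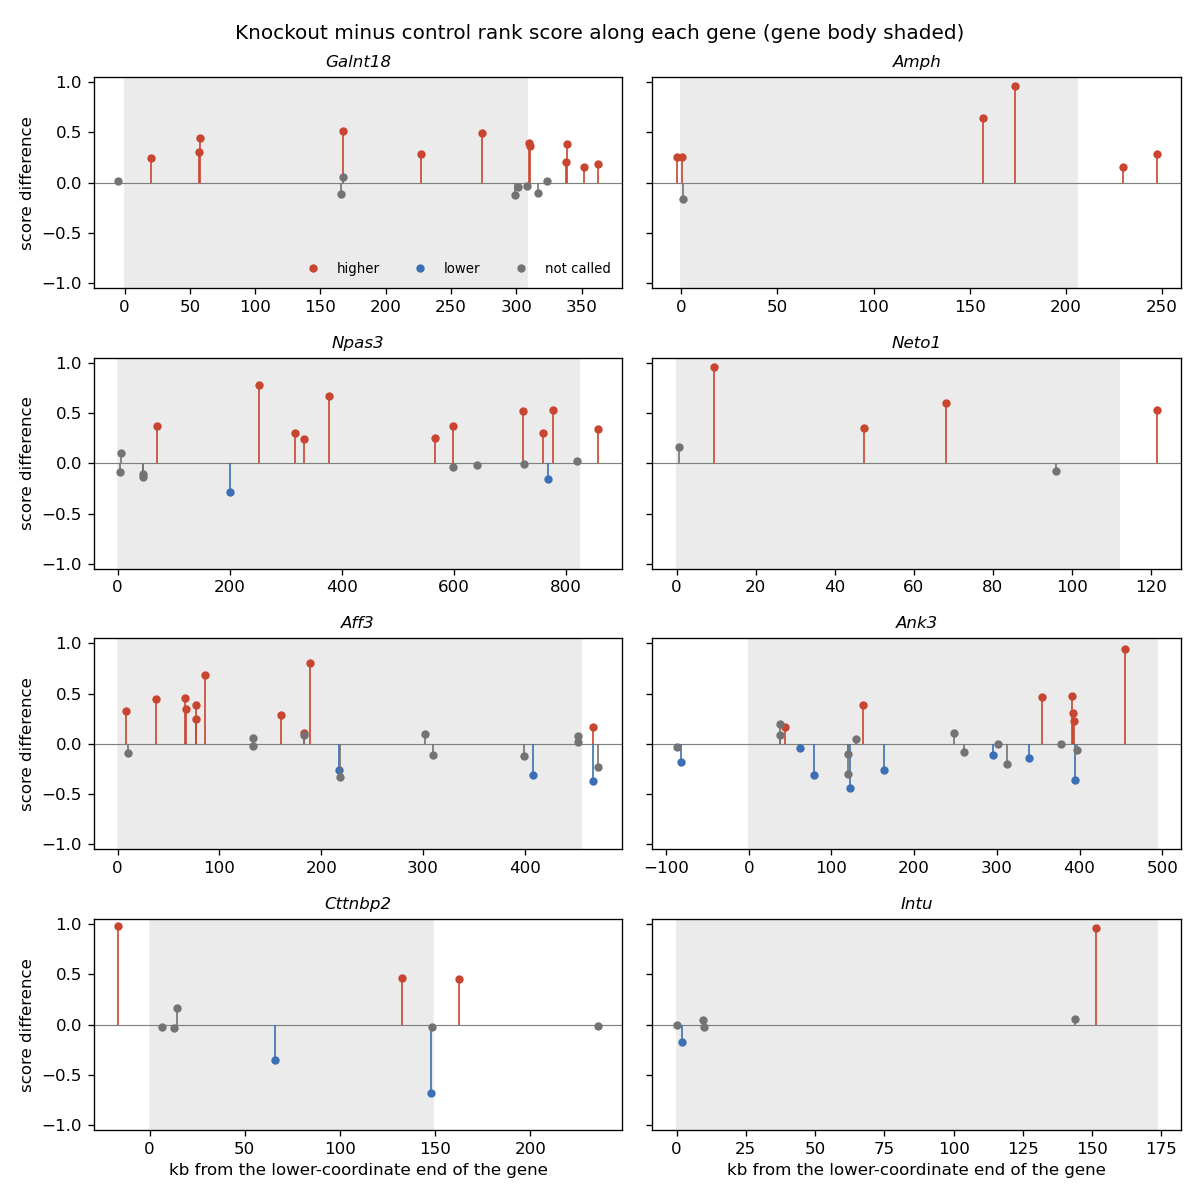
Difference in mean rank score, knockout minus control (vertical axis), of each tested region along the 8 genes, against the distance in kb from the lower-coordinate end of the gene (horizontal axis), with the gene body shaded. Regions called higher are red, lower blue and not called grey; gains are spread along Galnt18 and Npas3, most of those at Aff3 lie in its lower-coordinate part, and Ank3 holds 7 higher and 8 lower regions side by side.

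Npas3 (gene 27386, chromosome 12, 53248026 to 54072173) is the longest of the 8, at 824 kb, and 11 of its 21 tested regions were higher and 2 lower. The higher regions were spread over 788 kb. The 3 greatest had no control peak in the lists used. That at 53500382 to 53500781 scored 0.668, 0.741, 0.850, 0.794 and 0.826 in knockout replicates 1 to 5, that at 53624238 to 53624637 scored 0.731, 0.732, 0.696, 0.661 and 0.541, and that at 54024320 to 54024719 scored 0.503, 0.640, 0.458, 0.595 and 0.463. For the last, 1 control had a weaker peak in its full list. Fewer regions changed the other way. At 53448218 to 53448617, 5 of 6 controls and 1 of 5 knockouts were open, and the one at 54015315 to 54015714 went from 0.864 ± 0.0222 to 0.705 ± 0.084. The region at 53973393 to 53973792, also inside the gene, was open in all libraries, at 0.864 ± 0.0213 and 0.857 ± 0.0124.

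Aff3 (gene 16764, chromosome 1, 38175393 to 38630178) had 11 of 25 tested regions higher and 3 lower. The gains were in the lower-coordinate part of the gene, away from the listed start, apart from 1 region 11994 bp beyond the other end. The region at 38364169 to 38364568 had no control peak and scored 0.773, 0.812, 0.798, 0.847 and 0.778 in knockouts, though 1 control had a weaker peak in its full list. A region at 38260789 to 38261188 likewise had no control peak and scored 0.776, 0.789, 0.619, 0.647 and 0.576. The third gain (38241133 to 38241532) was weakly open in 3 controls, at 0.0345, 0.208 and 0.165, and scored 0.470, 0.580, 0.431, 0.502 and 0.636 in knockouts. Of the falls, the greatest called one (38642401 to 38642800, difference -0.366) shared its peak with a neighbouring region in 7 libraries and turned to 0.169 where overlapping peaks were merged. Without such sharing, the region at 38582732 to 38583131 was open in 4 of 6 controls, with a mean of 0.310 ± 0.268 over all 6, and in none of the knockouts.

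Galnt18 (gene 233733, chromosome 7, 111471656 to 111780067) had 12 of 20 tested regions higher and none lower, against 9 and 1 of 21 with the lists as deposited. Of the 12, 6 lay inside the gene and 6 beyond its higher-coordinate end, up to 54444 bp away. Of the 6 outside, 4 were neighbouring pairs that took their scores from the same peaks in 4 and 5 libraries, and with overlapping peaks merged 9 regions were higher. The 3 greatest gains were inside the gene and without a control peak in any full list. The region at 111638885 to 111639284 scored 0.553, 0.565, 0.513, 0.490 and 0.459 in knockouts, the one at 111744890 to 111745289 scored 0.355, 0.404, 0.647, 0.516 and 0.533, and the one at 111529185 to 111529584 scored 0.428, 0.577, 0.526, 0.339 and 0.361. Their peaks ranked no better than 25712 in any knockout list, and with lists cut to 36467 peaks their differences fell to 0.0526, 0.0784 and 0.0409. In those shorter lists Galnt18 had 2 of 8 tested regions higher and 1 lower, Npas3 4 of 11 and 1, and Aff3 4 of 8 and 1. The strongest higher region was open in all libraries, at 111491579 to 111491978, where 0.645 ± 0.0701 became 0.894 ± 0.0343.

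**Figure D3:**
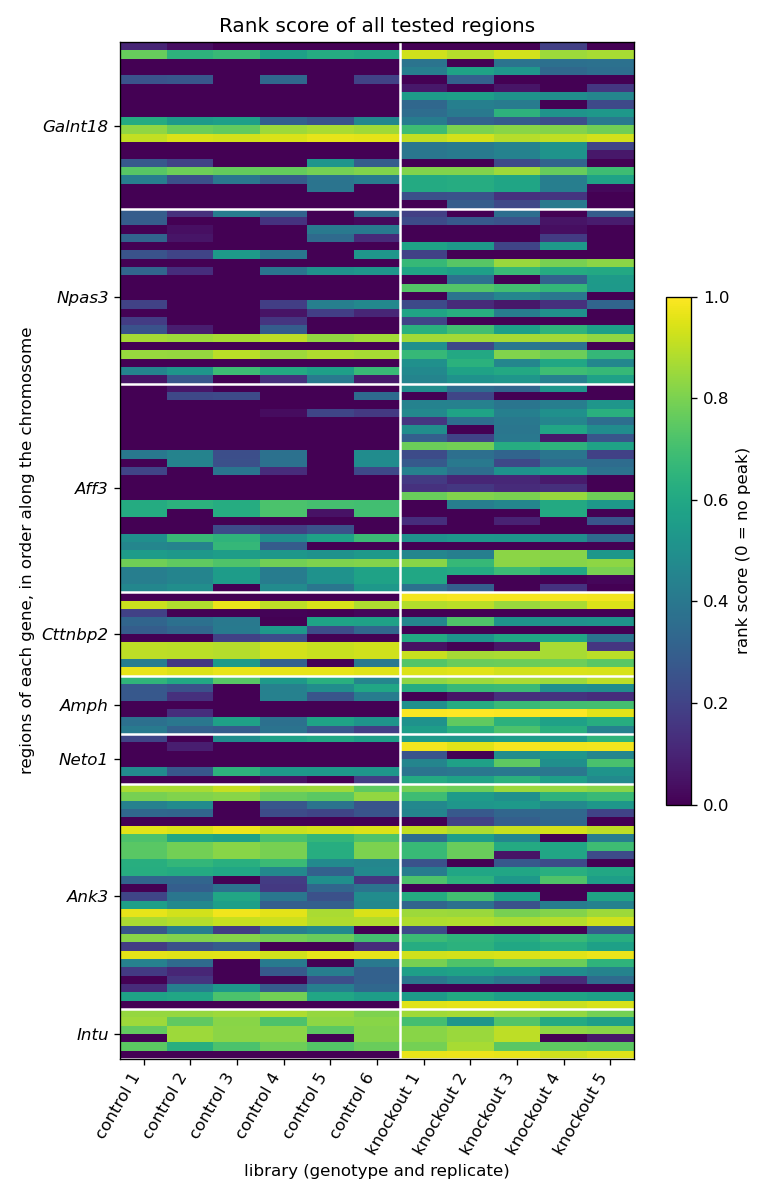
Rank score (colour, 0 for no peak to 1 for the strongest peak) of the 122 tested regions (rows, by gene and in order along the chromosome) in the 11 libraries (columns, 6 control then 5 knockout). Rows dark on the left and bright on the right are regions with a peak in knockouts and none, or only weak ones, in controls. A peak in every library is found in 37 of the 122 rows.

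As means over all tested regions of a gene, the scores ranked differently from the single gains. In controls Neto1 had the lowest mean, 0.160 ± 0.0593, followed by Npas3 with 0.198 ± 0.0343, Galnt18 with 0.224 ± 0.0179, Aff3 with 0.231 ± 0.0315 and Amph with 0.285 ± 0.0353, neighbours in this order whose ranges overlap. Cttnbp2 with 0.484 ± 0.0297 and Ank3 with 0.495 ± 0.0177 also overlapped, and Intu, at 0.622 ± 0.0716, had its lowest library at 0.526, just below the highest of Ank3 at 0.528. In knockouts the order was Aff3 with 0.342 ± 0.0275, Npas3 with 0.386 ± 0.0312, Galnt18 with 0.407 ± 0.0444, Ank3 with 0.526 ± 0.0222, Cttnbp2 with 0.577 ± 0.0363, Neto1 with 0.579 ± 0.0583, Amph with 0.628 ± 0.0398 and Intu with 0.763 ± 0.0951. Neighbours in this order overlapped too, except Galnt18 and Ank3, and Ank3 and Cttnbp2. The mean differences ran from 0.0308 at Ank3 and 0.0934 at Cttnbp2 to 0.343 at Amph and 0.420 at Neto1. Controls and knockouts overlapped at Ank3 and Intu and not at the other 6. The genes were chosen on this contrast, and the share of all genes without such overlap was not counted. Over the 122 regions the mean was 0.322 ± 0.0134 in controls and 0.469 ± 0.0199 in knockouts, while over all tested regions it was 0.429 ± 0.0177 and 0.410 ± 0.0129.

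**Figure D4:**
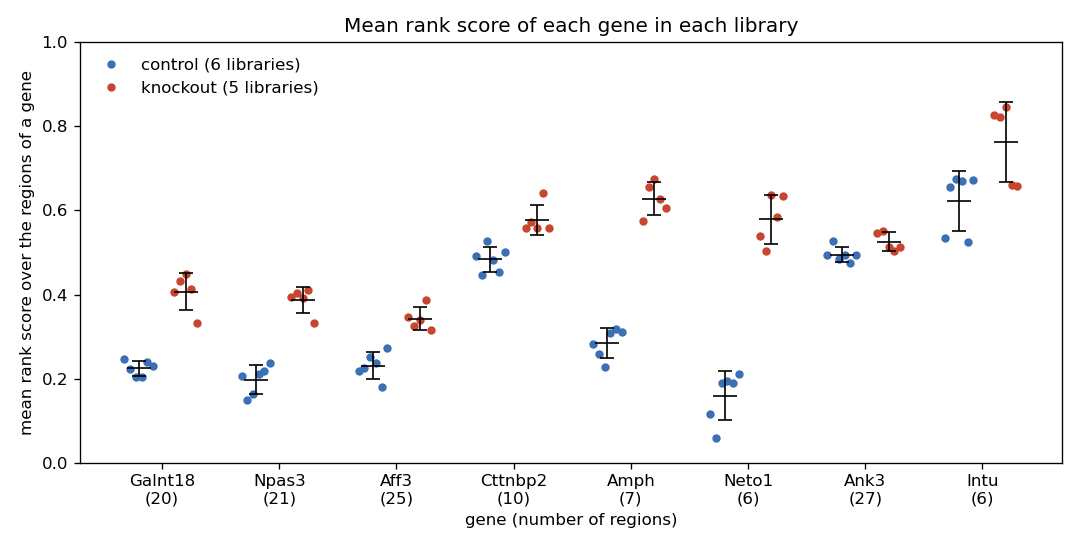
Mean rank score over the tested regions of each gene (vertical axis; the number of regions in brackets under the gene) in 6 control (blue) and 5 knockout (red) libraries, with mean and SD. Neto1 and Amph show the widest gaps, and the points of the genotypes overlap at Ank3 and Intu.

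Most member regions lay inside gene bodies. Of the 122 member regions, 76.2% were inside a gene body and more than 1 kb from its ends, against 41.9% of all tested regions, and 5.74% were within 1 kb of an end, against 23.7%. The tested regions as a whole include 9.17% beyond 100 kb of any gene, where no member region can lie. The member gene bodies run from 112 to 824 kb, and the part of gene length in these shares was not tested. Of the 55 higher regions, 40 were inside a body and more than 1 kb from its ends, 14 outside and 1 within 1 kb of an end. Over all tested regions, too, higher calls were rarer near gene ends, at 6.61% of the regions within 1 kb of one and 19.1% of those inside bodies. Within 1 kb of a listed start of any gene were 2 of the 55. No start was listed on chromosome 18, so the 4 higher Neto1 regions could not be counted there. Exons and introns are not separated in the annotation used.

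Knockout replicate 5, the library with the shortest list, had fewer of the gains. It held a peak at 46 of the 55 higher regions, and the other 4 knockouts at 51 to 54, while controls held one at 10 to 19. Over all higher regions of the genome its share was also the lowest of the knockouts, 90.8% against 95.9% to 97.1%. Controls held a peak at 40.3% to 51.1% of all higher regions and at 18.2% to 34.5% of the higher member regions. Without it, 53 of 119 tested member regions were higher, and 14256 regions were higher across the genome, beside 14135 with all libraries. A peak in every remaining knockout and no control was then found at 23 member regions. That count can only stay or rise when a library is left out. As deposited, the lists held 110.7 ± 25.5 peaks of the 8 genes in controls and 135 ± 6.5 in knockouts (SD over 6 and 5 libraries), and the ranges of 77 to 145 and 125 to 140 overlapped. The lists differ in length, and these peaks made up 0.0917% to 0.129% of the control lists and 0.155% to 0.171% of the knockout lists. The genes were chosen on this contrast.

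Across the genome the lists held 79525 to 112297 peaks in controls and 72935 to 85704 in knockouts, and depth is unknown. Each entry of a list was ranked and counted as a peak. Repeated intervals numbered 30454 to 46155 in control lists and 26575 to 31044 in knockout lists. Of all called regions 55.1% were lower in the main comparison, 67.4% with the lists as deposited, 67.0% with peaks of a -log10 q of at least 5 and 45.9% with centred scores. All 10 epithelial markers examined had a peak at a gene end in some library, and their summed score was 6.08 to 6.64 in controls and 5.55 to 6.43 in knockouts. Of 6 endothelial markers Pecam1, Cdh5, Tie1 and Emcn had none, and the summed score was 0.655 to 1.22 in controls and 0.275 to 0.588 in knockouts, lower in the knockout where the 8 genes are higher. The part of this in the member values was not tested. The summed scores overlapped between genotypes for 6 mesenchymal (1.01 to 1.41 and 0.989 to 1.29), 6 immune (0.699 to 1.11 and 0.699 to 0.784) and 4 mesothelial markers (0 to 0.661 and 0.386 to 0.778). At 0 in all libraries were Pdgfra, Tbx4, Tcf21, Ptprc, Csf1r, Lyz2, Itgam, Upk3b and Lrrn4.

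Relatives and partners of the 8 products were described in 8 lists, to be read beside the 17.0% higher and 20.8% lower of all tested regions. Among GalNAc transferases, with C1galt1 counted among them, 29 of 123 regions were higher (23.6%) and 23 lower (18.7%). Among bHLH-PAS factors 25 (24.0%) were higher and 17 (16.3%) lower of 104, and among ankyrins, spectrins and adducins 25 (23.4%) and 17 (15.9%) of 107. These lists held more lower than higher regions with the peak lists as deposited, at 25 and 32, 16 and 23, and 16 and 22. The list of AFF scaffold and elongation genes had 18 of each in 93 regions (19.4%), with 21 higher and 13 lower when centred and 15 and 27 as deposited. The list of cortactin, Cttnbp2nl, striatin and Shank genes had 11 higher (22.0%) and 8 lower (16.0%) of 50, and 7 and 10 as deposited.

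Genes of 1 list differed among themselves. Galntl6, of the transferase family, had 5 of 12 regions higher and none lower, one of them from no control peak to 0.723 ± 0.0538. Galnt1 had none of 13 higher and 6 lower, and Galnt12 none of 7 higher and 4 lower. C1galt1, which extends the first O-linked sugar, had 1 of 12 higher and 5 lower. A region of Sim1, a bHLH-PAS factor of hypothalamic development, went from no control peak to 0.880 ± 0.0379, and one of Arnt2, a partner of such factors, to 0.857 ± 0.0274. Each of these genes had 2 regions higher and 1 lower. Ank1, the ankyrin of red cells, had 3 of 11 higher and none lower, while Sptbn1, a spectrin, had 4 of 24 higher and 7 lower. These genes were chosen after their values were seen.

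Of planar polarity genes related to Intu, 4 of 73 regions were higher (5.48%) and 21 lower (28.8%), and Prickle2 alone had 5 lower of 11. Glutamate receptor genes and Neto2 had 7 higher (10.4%) and 17 lower (25.4%) of 67, and a region of Grin2b went from 0.674 ± 0.0736 to no peak. Endocytosis partners of amphiphysin had 10 higher (11.2%) and 25 lower (28.1%) of 89, among them 6 higher and 11 lower of 31 at Dnm3, which encodes a dynamin. More regions were lower than higher in these lists under the other scalings and ways of making regions that were run for them; lower calls were also the more frequent over all regions, apart from centred scores. The median differences of the 8 lists lay between -0.0657 and 0.0191, beside -0.0208 over all tested regions.

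Among 5240 other genes with at least 5 tested regions, those whose mean score followed the mean of the 8 genes most closely over the 11 libraries were Dgkb, a diacylglycerol kinase (Pearson's r = 0.993), Ralyl (r = 0.990), Cers6, a ceramide synthase (r = 0.989), Kcnmb2, a subunit of calcium-activated potassium channels (r = 0.987), and S1pr1, a sphingosine-1-phosphate receptor (r = 0.987). The libraries fall into 2 genotypes, so r here mostly states that the gene was low in controls and high in knockouts. Dgkb rose from 0.0835 ± 0.0282 to 0.436 ± 0.0284 over 7 regions, and S1pr1 was at 0.266 ± 0.0369 and 0.600 ± 0.0374 over 13.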

How the data were processed

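The authors deposited 1 narrowPeak list per library. Build mm10, MACS2, DiffBind 3 and deepTools are named in the submitters' processing notes, without roles, and no source used here names the aligner or options. The authors' deposited score column served no result. For each peak the authors deposited a fold enrichment (a ratio), a -log10 p and a -log10 q, all of which move with depth, which is unknown.

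Each list was cut to its 72935 peaks of highest -log10 p and peaks were given rank scores. Windows of 400 bp on summits were kept by best rank without overlap, and a peak overlapping one by at least 100 bp gave its score. The weakest kept peak had a -log10 p of 6.59 to 35.6 in controls and 2.00 to 14.0 in knockouts, so the cut removed some control peaks stronger than knockout peaks it kept. Regions were assigned to the nearest protein-coding gene body of GRCm38.p6, the same build. Rank scores were compared with limma 3.58.1 (trend and robust, genotype only) in R 4.3.3, with Benjamini-Hochberg adjustment, and the fit was tested on simulated data. Python 3.11.15, numpy 2.4.6, pandas 2.3.3, matplotlib 3.10.9 and bedtools 2.31.1 were used. Members and lists were chosen with earlier results of these data known. Described for each gene were the 3 greatest gains, the greatest fall and the region at the start; further regions were chosen after their values were seen. Bmal2 of the bHLH-PAS list was not matched, and 1 marker list is not reported here. The settings varied were list length, the q threshold, ranking by fold, overlap, merged peaks, region filter, centring, Fisher's exact test, gene distance, a replicate block and leaving out single libraries.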

Additional observations from a re-analysis of the deposited data

Results flagged for a closer look

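Of 79 sets of 5 or 6 library values examined (the described regions, the gene means and the overall mean, by genotype), 14 held 1 library far from the others of its genotype. The limit used marks about 1 in 20 sets of independent, spread values by chance. That share cannot be set against these sets, which overlap and in part hold libraries that are all but 1 at 0.

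Some were control libraries with a weak peak at a region that gained. Control replicate 2 scored 0.131 at the greatest Amph gain and 0.0856 at that of Neto1, and control replicate 6 scored 0.186 at the third Neto1 gain. Control replicate 2 also had the highest Ank3 mean of the controls, 0.528. Among knockouts, replicate 5 was lowest at the greatest Amph gain, with 0.958, in the Npas3 mean, with 0.332, and in the mean over all 122 regions, with 0.434. It was highest at the Neto1 regions starting at 86490655 and 86395367, with 0.517 and 0.652. Knockout replicate 2 was lowest at the greatest Neto1 gain, with 0.954. Knockout replicate 1 was the one knockout with a peak at the Npas3 region that fell, with 0.192, and scored 0.597 at the Aff3 region starting at 38642401. Knockout replicate 4 scored 0.868 at the Cttnbp2 region starting at 18514103 and had the highest Cttnbp2 mean, 0.641; in this library that region and the start took their scores from 1 peak.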

How the results depend on the processing

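The number of regions called across the genome (31486), of member regions called higher (55) and lower (16), of those in every knockout and no control (18) and the mean difference over member regions (0.147) kept their direction under the alternatives run. With lists cut to 36467 peaks the calls were 17229, 25 and 10, with fewer regions tested. By Fisher's exact test, where 24732 regions and 45 member regions could be tested, they were 11676, 30 and 3. The mean difference was 0.106 with the lists as deposited, 0.0983 with a -log10 q of at least 5, 0.174 with overlapping peaks merged and 0.114 with regions of at least 1 library; the cause was not tested. Leaving out each library in turn gave 28752 to 30561 calls, 47 to 53 higher and 13 to 17 lower, and mean differences of 0.143 to 0.157. In every knockout and no control were 18 to 23, a count that can only stay or rise when a library is left out. The Aff3 region starting at 38642401 turned from -0.366 to 0.113 with 36467 peaks and 0.169 with merged peaks. The other 27 of the 28 called regions described by rule kept their sign in all 19 settings, but not their size. Most of them were gains picked by their difference at genes chosen for gains. Where all controls were at 0 and all knockouts had a peak, leaving out a library could not change the sign. With 36467 peaks the third Npas3 gain went from 0.532 to 0.0954 and the third Aff3 gain from 0.456 to 0.0870. The greatest Npas3 fall went from -0.281 to -0.0226. The greatest gains of Npas3 and Aff3 changed less, from 0.776 to 0.552 and from 0.802 to 0.603.

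Replicate numbers are shared between genotypes but mark no stated pairing. Deviations of same-numbered libraries correlated between -0.0234 and 0.139, and 2 of 5 knockouts correlated best with their own number. With the replicate block 27505 regions were called, and 48 member regions were higher and 17 lower.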
